A study of Rattus norvegicus with 8 samples.

Results

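Aqp1 and 9 other genes through which cells set their volume were examined in AFCs, the cells of the annulus fibrosus, which is the fibrous outer ring of the intervertebral disc. All 10 were found by symbol among the 31699 rows of the gene table. The 10 genes were chosen with the results of these samples known, and Aqp1 was selected on its difference between the groups compared here, so their values are given as a description, with no p-value for any of them. RNA-seq was performed on 8 samples of AFCs from Sprague Dawley rats, all exposed to cyclic mechanical stretch (CMS) at 20% elongation and 0.5 Hz for 36 h. In 4 samples, labelled Lv-Ctrl, the cells had received the control lentivirus pLVX-shRNA-Puro, and in 4, labelled Lv-Piezo1, the lentivirus pLVX-shRNA-Puro-Piezo1, which carries a short hairpin RNA against the mechanosensitive channel Piezo1, each at an MOI of 20 for 24 h. Cells of each isolation came from the pooled tissue of several rats, so no sample stands for a single animal, and the methods state an age for the rats of their surgical model but not separately for the donors of these cells. No sample without stretch entered, and the comparison addresses how the virus labelled Lv-Piezo1 and the control virus differ under CMS.

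The abundance of each transcript is given in TPM, a unit that corrects for transcript length and has the same total in every sample. Sequencing depth cannot be read from TPM and is unknown here, which leaves the spread among the 4 samples of a group as the measure of precision. Piezo1, the target of the hairpin, went against the label. It measured 31.10, 32.99, 26.68 and 29.46 TPM in Lv-Ctrl replicates 1 to 4 and 38.10, 37.74, 40.24 and 41.41 TPM in Lv-Piezo1 replicates 1 to 4. The 4 samples labelled Lv-Piezo1 were all above the 4 labelled Lv-Ctrl, and limma gave a log2 fold change of 0.38 with a standard error of 0.06 and an adjusted p of 8.6e-04 (5.9e-04 to 0.0068 over the alternatives). With median-ratio scaling the change was 0.21. For this reason the groups are named by their labels throughout, and higher or lower always means higher or lower under the label Lv-Piezo1. The paper reports that the hairpin was effective and that apoptosis and calpain activity were lower with Lv-Piezo1, measures not examined here. Why the transcript of Piezo1 was higher was not tested.

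Water crosses the plasma membrane through aquaporins and follows the solutes that a cell takes up or releases. A swollen cell loses potassium, chloride and organic osmolytes through LRRC8 anion channels, potassium channels and KCl cotransporters, while a shrunken cell gains salt through NKCC1, which WNK kinases switch on through the kinases SPAK and OSR1. Under lasting hypertonic stress, the transcription factor NFAT5 raises transporters for osmolytes such as myo-inositol and taurine, and disc cells meet such stress because spinal load presses water out of the proteoglycan-rich disc.

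Aqp1 encodes a water channel of red blood cells, kidney tubules and many endothelia, and is listed as ENSRNOG00000011648. Its transcript measured 57.34, 59.00, 52.18 and 53.58 TPM in Lv-Ctrl replicates 1 to 4. In Lv-Piezo1 replicates 1 to 4 it measured 1998.41, 2004.10, 2033.89 and 2077.20 TPM. The groups lay far apart, and neither held a sample that stood off from the rest of its group. The mean went from 55.5 ± 3.18 to 2028 ± 36.1 TPM (SD, n = 4 each), 36.5-fold higher, with a log2 fold change of 5.17 (standard error 0.04) on the log2(TPM + 1) scale. Among all rows ordered by mean TPM, Aqp1 took place 2327 in samples labelled Lv-Ctrl and place 56 in samples labelled Lv-Piezo1. In bulk RNA, more cells of a type and more RNA per cell cannot be told apart, nor can fewer cells of a type and less RNA per cell.

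Aqp1 made up nearly all aquaporin transcript in both groups. It held 97.5%, 97.0%, 97.1% and 96.1% of the summed aquaporin TPM in Lv-Ctrl replicates 1 to 4 and 99.8% to 99.9% in each sample labelled Lv-Piezo1. Of the 11 other aquaporins in the table, Aqp2, Aqp6, Aqp7, Aqp9 and Aqp12a were listed at 0 in all 8 samples, and Aqp3, Aqp4 and Aqp5 did not exceed 0.14 TPM in any. Only Aqp11, an aquaporin of intracellular membranes, reached a mean of 1 TPM over the 8 samples, the limit for testing. It measured 0.61, 0.65, 0.75 and 1.10 TPM in Lv-Ctrl replicates 1 to 4 and 1.47, 2.93, 1.90 and 1.39 TPM in Lv-Piezo1 replicates 1 to 4. Its groups did not overlap, and its log2 fold change of 0.70 (adjusted p = 0.0087 from limma) stayed below the fold threshold of 1, which it passed with a pseudocount of 0.1 (1.18). With quantile normalization Aqp11 no longer passed by adjusted p (0.48, adjusted p = 0.058). Its mean in samples labelled Lv-Ctrl was 0.78 TPM, so it reached the limit for testing only through the samples labelled Lv-Piezo1. Below the limit for testing, Aqp8 had a mean of 0.528 TPM in samples labelled Lv-Ctrl and 0.128 TPM in samples labelled Lv-Piezo1. The groups of Aqp8 did not overlap. Mip, the aquaporin of the eye lens and also below the limit, had 0.415 and 0.61 TPM, and its groups overlapped.

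**Figure D1:**
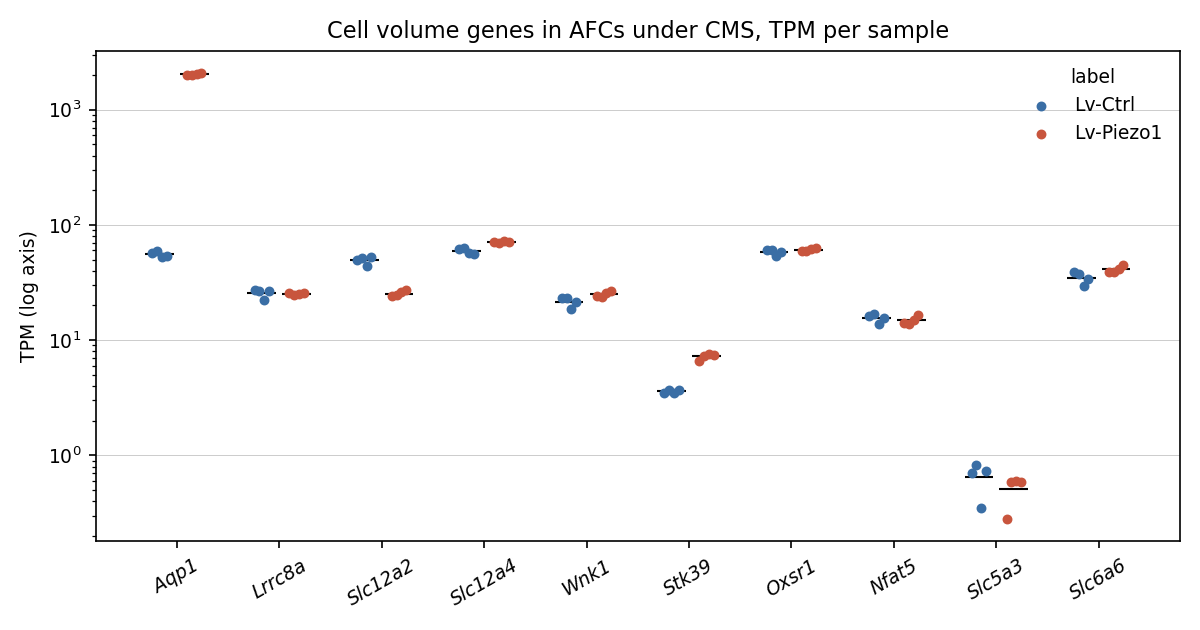
TPM on a log axis of the 10 cell volume genes in each of the 4 samples labelled Lv-Ctrl (blue) and the 4 labelled Lv-Piezo1 (red), with the mean of each group as a line. Aqp1 went from 55.5 to 2028 TPM, Slc12a2 was lower and Stk39 higher in every sample labelled Lv-Piezo1, and the groups of Lrrc8a, Oxsr1, Nfat5, Slc5a3 and Slc6a6 overlapped.

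The 9 other genes differed far less. Calls required an adjusted p under 0.05 together with a log2 fold change of 1 or more in size. Of the 9 genes of the list that reached the limit for testing, 1 (Aqp1) was called higher and 0 lower, where 4.91% of the 13103 tested genes were called higher and 2.76% lower. By adjusted p alone, 5 were higher and 1 lower, where 41.9% of tested genes were higher and 16.3% lower. These counts depended on scaling: median-ratio scaling gave 2 higher and 4 lower, where 26.7% and 29.2% of tested genes were, and quantile normalization gave 3 and 3, where 28.7% and 27.3% were. In 5 of the 10 genes the groups did not overlap, which held for 54.2% of tested genes. Because the contrast itself chose the genes, nothing is read from these counts. Over all tested genes the median log2 fold change was 0.14, which became -0.02 with median-ratio scaling and -0.0036 with quantile normalization. Changes relative to this median of 0.14 are therefore given as well. Relative to it, Aqp1 had a log2 fold change of 5.03. The libraries of the groups differed as well: the summed share of mitochondrially encoded transcripts was 7.03% to 7.90% under the label Lv-Ctrl and 6.05% to 6.53% under Lv-Piezo1, and 16645 to 17022 against 17191 to 17657 rows were above 0. The part of these traits in the differences between the groups was not tested.

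Lrrc8a encodes the obligatory subunit of the volume-regulated anion channel, through which swollen cells release chloride and osmolytes. It measured 27.06, 26.94, 22.41 and 26.54 TPM in Lv-Ctrl replicates 1 to 4 and 25.71, 24.61, 25.08 and 25.52 TPM in Lv-Piezo1 replicates 1 to 4. The groups overlapped, and Lv-Ctrl replicate 3 lay below the other 7 samples. The log2 fold change was -0.02 (standard error 0.06), or -0.17 relative to the median of all genes. It moved to -0.20 with median-ratio scaling and to -0.16 with quantile normalization, and was 0.00070 without Lv-Ctrl replicate 1.

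LRRC8A works only in assemblies with LRRC8B to LRRC8E, and the partner sets which solutes pass: LRRC8D favours taurine and other organic osmolytes, while LRRC8C channels carry mainly chloride. These partners belong to a list of related genes, and they are named individually here after their values were seen, to complete the family. Lrrc8d, the most abundant of the family in the samples labelled Lv-Ctrl, measured 48.28, 47.23, 44.99 and 45.02 TPM there and 26.07, 24.62, 27.23 and 28.59 TPM in Lv-Piezo1 replicates 1 to 4. Lrrc8c measured 5.72, 6.60, 5.88 and 5.63 TPM in Lv-Ctrl replicates 1 to 4 and 10.44, 10.37, 9.63 and 10.23 TPM in Lv-Piezo1 replicates 1 to 4. Neither gene had overlapping groups, and they differed in opposite directions. The log2 fold change was -0.78 for Lrrc8d (adjusted p = 2.1e-06 from limma) and 0.68 for Lrrc8c (adjusted p = 1.5e-05 from limma), both short of the fold threshold. Lrrc8b was higher by less, with a log2 fold change of 0.36 (adjusted p = 0.011 from limma) that no longer passed with quantile normalization (0.17, adjusted p = 0.073). Lrrc8e had a log2 fold change of 0.09 (adjusted p = 0.28 from limma), which turned to -0.06 with median-ratio scaling and to -0.10 with quantile normalization.

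Shares within the family do not depend on how a sample is scaled. Lrrc8d held 51.8%, 50.8%, 53.5% and 50.6% of the summed LRRC8 TPM in Lv-Ctrl replicates 1 to 4 and 34.1%, 34.0%, 36.1% and 35.7% in Lv-Piezo1 replicates 1 to 4. Lrrc8c held 6.64 ± 0.479% in samples labelled Lv-Ctrl and 13.4 ± 0.761% in samples labelled Lv-Piezo1 (SD, n = 4 each). The share of Lrrc8a itself was 28.6 ± 1.37% and 33.2 ± 0.943%, while the summed TPM of the family was 89.8 ± 4.27 and 76.1 ± 3.18. None of these shares overlapped between the groups, and neither did the TPM of 54.2% of tested genes. Shares within a sample are tied to each other, so a lower share of Lrrc8d raises those of the other subunits in sum. By TPM, the groups of Lrrc8a and of Lrrc8e overlapped. These shares were computed after the values of the subunits were seen.

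**Figure D2:**
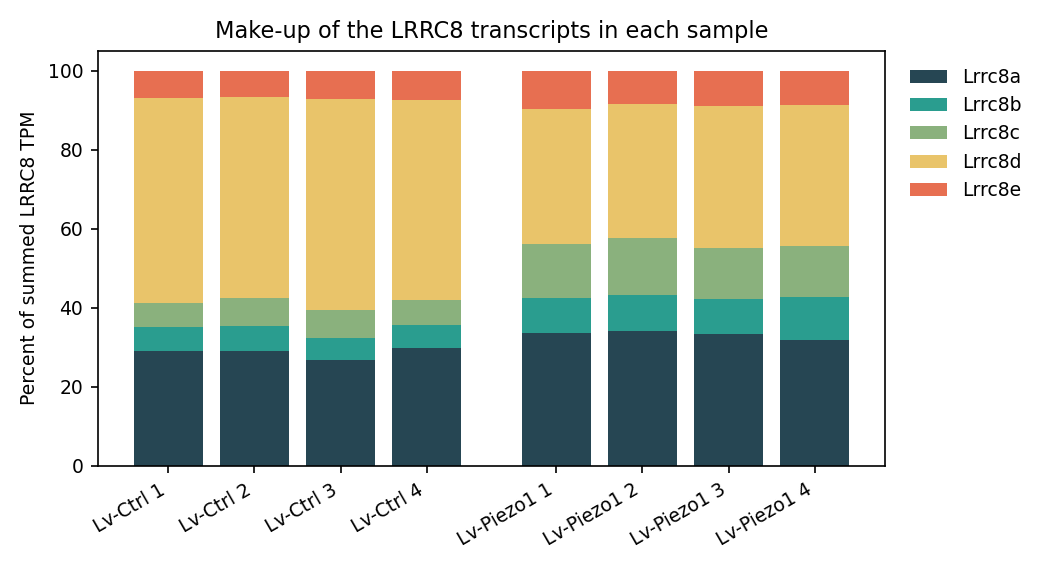
Share of each LRRC8 subunit in the summed TPM of Lrrc8a to Lrrc8e, in percent, stacked to 100 for each of the 8 samples. Lrrc8d takes 50.6% to 53.5% in samples labelled Lv-Ctrl and 34.0% to 36.1% in samples labelled Lv-Piezo1. The shares of the other subunits are larger in the latter, as in sum they must be where that of Lrrc8d is smaller.

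Slc12a2 encodes NKCC1, which carries sodium, potassium and chloride into the cell and restores volume after shrinkage. It measured 49.80, 51.18, 43.84 and 52.74 TPM in Lv-Ctrl replicates 1 to 4 and 23.96, 24.46, 26.06 and 27.05 TPM in Lv-Piezo1 replicates 1 to 4. All 4 samples labelled Lv-Piezo1 lay below all 4 labelled Lv-Ctrl. The mean of 49.4 ± 3.89 TPM in the samples labelled Lv-Ctrl was 1.95 times that of 25.4 ± 1.43 TPM in samples labelled Lv-Piezo1 (SD, n = 4 each). The log2 fold change was -0.93 (standard error 0.06), or -1.07 relative to the median of all genes, and it passed the fold threshold with median-ratio scaling (-1.11) and with quantile normalization (-1.05).

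Slc12a4 encodes KCC1, which carries potassium and chloride out of the cell. It measured 61.46, 63.48, 56.75 and 56.06 TPM in Lv-Ctrl replicates 1 to 4 and 70.59, 70.02, 73.05 and 70.67 TPM in Lv-Piezo1 replicates 1 to 4. The groups did not overlap, but the log2 fold change of 0.26 (standard error 0.05) was 0.11 relative to the median of all genes and 0.08 after median-ratio scaling. Of the 7 related cotransporters, 4 were tested, 1 was called higher and 0 lower, and by adjusted p alone 3 were higher and 1 did not pass, beside 4.91% of all tested genes called higher and 41.9% higher by adjusted p alone. The gene called was Slc12a7, which encodes KCC4, at 5.28, 5.75, 4.84 and 4.81 TPM in Lv-Ctrl replicates 1 to 4 and 12.96, 14.53, 13.79 and 15.72 TPM in Lv-Piezo1 replicates 1 to 4. Its groups lay apart, with a log2 fold change of 1.31 (adjusted p = 9.2e-07 from limma, 5.7e-07 to 9.5e-05 over the alternatives). Slc12a9, an SLC12 family protein and the most abundant of the 7 in the samples labelled Lv-Ctrl only, had a log2 fold change of 0.24 (adjusted p = 0.0032 from limma), which was 0.08 after median-ratio scaling (adjusted p = 0.25).

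Set against Slc12a4, the ratio of Slc12a2 TPM to Slc12a4 TPM stood at 0.810, 0.806, 0.773 and 0.941 in Lv-Ctrl replicates 1 to 4. In Lv-Piezo1 replicates 1 to 4 it was 0.339, 0.349, 0.357 and 0.383. Transcript of the importer NKCC1 was thus lower against that of the exporter KCC1 in every sample labelled Lv-Piezo1. The scaling of a sample does not enter this ratio, which was 0.832 ± 0.0742 and 0.357 ± 0.0185 (SD, n = 4 each). It was formed from genes chosen with the results of these samples known and is a description.

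Wnk1 encodes a chloride-sensing kinase at the head of the cascade that turns NKCC1 on and the KCl cotransporters off. It measured 23.17, 23.04, 18.82 and 21.54 TPM in Lv-Ctrl replicates 1 to 4 and 23.95, 23.64, 25.86 and 26.73 TPM in Lv-Piezo1 replicates 1 to 4. The groups did not overlap but nearly met, at 23.17 and 23.64 TPM. The log2 fold change was 0.20 (standard error 0.07), or 0.06 relative to the median of all genes and 0.03 after median-ratio scaling.

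Stk39 encodes SPAK and Oxsr1 encodes OSR1, the related kinases that WNK1 activates and that phosphorylate the cotransporters. Stk39 measured 3.51, 3.70, 3.49 and 3.70 TPM in Lv-Ctrl replicates 1 to 4 and 6.64, 7.24, 7.66 and 7.39 TPM in Lv-Piezo1 replicates 1 to 4. Its groups lay apart, with means of 3.60 ± 0.116 and 7.23 ± 0.432 TPM (SD, n = 4 each), 2.01-fold higher, and a log2 fold change of 0.84 (standard error 0.06), or 0.70 relative to the median of all genes. Oxsr1 measured 60.88, 60.76, 53.84 and 57.64 TPM in Lv-Ctrl replicates 1 to 4 and 59.08, 59.46, 61.90 and 63.14 TPM in Lv-Piezo1 replicates 1 to 4. Its groups overlapped, and its log2 fold change of 0.06 (standard error 0.05) turned to -0.11 with median-ratio scaling and to -0.03 with quantile normalization. Oxsr1 was the more abundant kinase transcript in all 8 samples, and the ratio of Stk39 to Oxsr1 TPM was 0.0619 ± 0.00331 in samples labelled Lv-Ctrl and 0.119 ± 0.00508 in samples labelled Lv-Piezo1 (SD, n = 4 each), without overlap. This ratio, too, is a description formed from genes chosen with the results known.

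Of 14 regulators of the WNK pathway in the table (scaffolds, ubiquitin ligase parts, SGK1 and the TSC22D proteins among them), 11 were tested. Beside 4.91% of all tested genes called higher and 2.76% lower, 0 of these were called in either direction. By adjusted p from limma alone, 3 were higher (27.3%), 4 were lower (36.4%) and 4 did not pass, beside 41.9% and 16.3% of all tested genes, with a median log2 fold change of 0.04 against 0.14 for all tested genes. The most abundant was Tsc22d1, which encodes a transcriptional regulator, at 2757 ± 71.5 TPM in samples labelled Lv-Ctrl and 1611 ± 51.4 TPM in samples labelled Lv-Piezo1 (SD, n = 4 each). Its log2 fold change of -0.78 (adjusted p = 1.2e-07 from limma) did not reach the fold threshold.

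Nfat5 encodes the tonicity-responsive transcription factor. It measured 16.09, 16.97, 13.74 and 15.69 TPM in Lv-Ctrl replicates 1 to 4 and 14.12, 13.70, 14.84 and 16.67 TPM in Lv-Piezo1 replicates 1 to 4. The groups overlapped across most of their range, with a log2 fold change of -0.07 (standard error 0.08), or -0.21 relative to the median of all genes.

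Slc6a6 encodes the taurine transporter, a known target of NFAT5. It measured 38.83, 37.31, 29.68 and 33.85 TPM in Lv-Ctrl replicates 1 to 4 and 38.68, 39.22, 41.70 and 45.13 TPM in Lv-Piezo1 replicates 1 to 4. The groups overlapped only in that Lv-Ctrl replicate 1 lay above Lv-Piezo1 replicate 1. The log2 fold change was 0.24 (standard error 0.09), or 0.09 relative to the median of all genes and 0.06 after median-ratio scaling.

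Slc5a3 encodes the sodium/myo-inositol cotransporter, another known NFAT5 target, and was the 1 gene of the 10 below the limit for testing. It measured 0.71, 0.82, 0.35 and 0.74 TPM in Lv-Ctrl replicates 1 to 4 and 0.28, 0.59, 0.60 and 0.59 TPM in Lv-Piezo1 replicates 1 to 4. The groups overlapped, and 1 sample of each lay well below the others. In the RefSeq gene table of assembly GRCr8, Slc5a3 lies inside the span of Mrps6, which encodes a mitochondrial ribosomal protein and was looked at after the values were seen. Mrps6 had 111 ± 12.8 TPM in samples labelled Lv-Ctrl and 77.3 ± 7.22 TPM in samples labelled Lv-Piezo1 (SD, n = 4 each). Reads of overlapping genes can be divided between them in more than 1 way, so the level of Slc5a3 is uncertain.

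Of 22 genes of osmolyte transport and synthesis in the table, 19 were tested. Beside 4.91% of all tested genes called higher and 2.76% lower, 0 of these were called in either direction. By adjusted p from limma alone, 10 were higher (52.6%), 5 were lower (26.3%) and 4 did not pass, beside 41.9% higher and 16.3% lower of all tested genes, with a median log2 fold change of 0.24 against 0.14. Akr1b1, the most abundant, encodes aldose reductase, which makes sorbitol, and is a further known NFAT5 target. It had 611 ± 29.2 TPM in samples labelled Lv-Ctrl and 522 ± 12.9 TPM in samples labelled Lv-Piezo1 (SD, n = 4 each), with a log2 fold change of -0.23 (adjusted p = 7.7e-04 from limma). This change was -0.41 with median-ratio scaling and -0.20 with quantile normalization.

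By level in TPM, Slc12a4, Oxsr1, Aqp1 and Slc12a2 led the 10 genes in the samples labelled Lv-Ctrl, and each overlapped the next in that order. Slc6a6 followed, then Lrrc8a and Wnk1, whose samples overlapped, then Nfat5, Stk39 and Slc5a3. In the samples labelled Lv-Piezo1, Aqp1 came first, followed by Slc12a4, Oxsr1 and Slc6a6 without overlap between neighbours. Slc12a2, Lrrc8a and Wnk1 came next with overlapping samples, at means of 25.4, 25.2 and 25.0 TPM, and Nfat5, Stk39 and Slc5a3 were again last. Within a group, Lv-Ctrl replicate 3 was the lowest sample in 9 of the 10 genes, as it was in 48.8% of tested genes, and Lv-Piezo1 replicate 4 was the highest in 6 of the 10, as it was in 42.7% of tested genes.

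Across all 7 lists of related genes, chosen like the 10 with earlier results of these data known and holding none of them, 94 genes were in the table and 64 were tested. Of these, 4 were called higher (6.25%) and 1 lower (1.56%), beside the 4.91% and 2.76% of all tested genes. By adjusted p from limma alone, 32 were higher (50%), 15 were lower (23.4%) and 17 did not pass, beside 41.9% and 16.3% of all tested genes, with a median log2 fold change of 0.22 against 0.14. Such splits of the related and marker lists were counted on the deposited values only. That of all tested genes depended on scaling, as given above. Of the anion channels, 12 were tested and 1 was called, Ttyh2, which encodes a tweety family membrane protein. Ttyh2 measured 3.28, 3.16, 2.86 and 3.00 TPM in Lv-Ctrl replicates 1 to 4 and 9.18, 8.99, 9.38 and 9.60 TPM in Lv-Piezo1 replicates 1 to 4. Its groups lay apart, with a log2 fold change of 1.34 (adjusted p = 1.9e-07 from limma, 9.4e-08 to 6.6e-05 over the alternatives). Clns1a, the most abundant of that list, encodes a chaperone first described as a chloride channel regulator, and had a log2 fold change of 0.08 (adjusted p = 0.067 from limma), which turned to -0.10 with median-ratio scaling and to -0.0039 with quantile normalization.

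Among exchangers and the sodium pump, which sets the ion gradients that volume control draws on, 10 genes were tested, 2 were called higher and 0 lower, beside 4.91% and 2.76% of all tested genes. By adjusted p alone, 6 were higher and 3 lower, beside 41.9% and 16.3%. Atp1b2, a beta subunit of the pump, had 0.388 ± 0.155 TPM in samples labelled Lv-Ctrl and 2.81 ± 0.378 TPM in samples labelled Lv-Piezo1 (SD, n = 4 each), with a log2 fold change of 1.46 (adjusted p = 1.5e-05 from limma, 9.0e-06 to 6.7e-04 over the alternatives). Fxyd1, which encodes the pump regulator phospholemman, had 1.99 ± 0.456 and 5.73 ± 1.40 TPM (SD, n = 4 each), with a log2 fold change of 1.16 (adjusted p = 3.7e-04 from limma, 1.6e-04 to 0.0044 over the alternatives) that fell short of the fold threshold with quantile normalization (0.95). Both rose from low levels. Atp1b2, below 1 TPM in every sample labelled Lv-Ctrl, reached the limit for testing only through the samples labelled Lv-Piezo1. Its call and adjusted p are thus a description and no support. Named after their values were seen, to complete the beta subunits, Atp1b3 had 462 ± 5.92 and 252 ± 3.70 TPM and Atp1b1 had 66.8 ± 3.40 and 103 ± 4.23 TPM (SD, n = 4 each). Their ratio, Atp1b1 over Atp1b3, was 0.145 ± 0.00914 in samples labelled Lv-Ctrl and 0.409 ± 0.0208 in samples labelled Lv-Piezo1 (SD, n = 4 each). For Atp1b3 the log2 fold change of -0.87 (adjusted p = 1.2e-08 from limma) passed the fold threshold after median-ratio scaling, at -1.05.

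Of 7 tested genes of potassium exit and swelling sensing, 0 were called higher and 1 lower, beside 4.91% and 2.76% of all tested genes, and by adjusted p alone 2 were higher and 2 lower, beside 41.9% and 16.3%. The gene called was Kcnk2, which encodes TREK-1, a potassium channel opened by membrane stretch. It measured 487.20, 493.22, 448.55 and 482.28 TPM in Lv-Ctrl replicates 1 to 4 and 197.28, 201.80, 200.43 and 199.77 TPM in Lv-Piezo1 replicates 1 to 4. All 4 samples labelled Lv-Piezo1 lay below all 4 labelled Lv-Ctrl, with a log2 fold change of -1.25 (adjusted p = 8.8e-09 from limma, 1.5e-09 to 8.7e-06 over the alternatives).

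**Figure D3:**
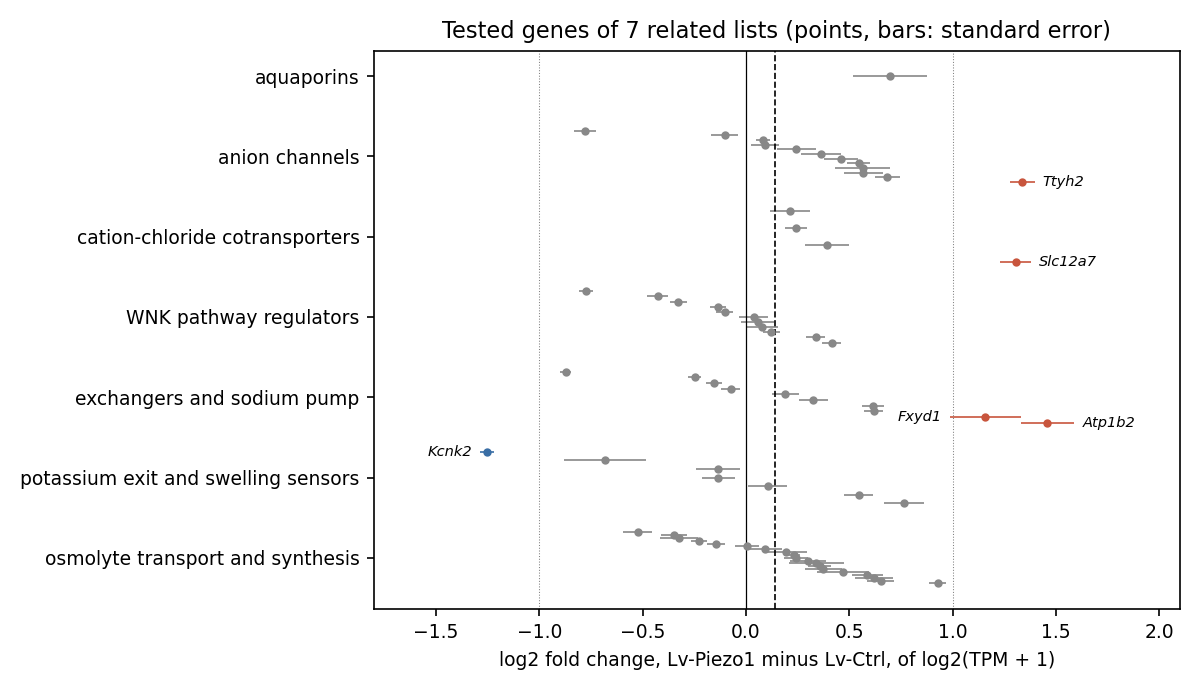
Log2 fold change of log2(TPM + 1), Lv-Piezo1 minus Lv-Ctrl, of the 64 tested genes of 7 related lists, with bars for the standard error, a dashed line at the median of all tested genes (0.14) and dotted lines at the fold threshold. Called genes are in red (higher) and blue (lower): Ttyh2, Slc12a7, Atp1b2 and Fxyd1 lie above the threshold and Kcnk2 below it.

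Aqp1 is also a gene of endothelium, red blood cells and nucleus pulposus cells. Markers of cell types that a culture of disc cells could hold are therefore given beside it. Of 11 endothelial markers in the table, 2 were tested. Pecam1 did not exceed 0.21 TPM and Cdh5 did not exceed 0.06 TPM in any sample, and Emcn was listed at 0 in all 8. The summed TPM of the list was 25.5, 29.7, 34.2 and 31.6 in Lv-Ctrl replicates 1 to 4 and 36.7, 38.2, 33.9 and 39.0 in Lv-Piezo1 replicates 1 to 4. The groups overlapped, and most of the sum came from Egfl7, which had 29.5 ± 3.76 and 30.7 ± 2.16 TPM (SD, n = 4 each). The 1 marker called, beside 4.91% of all tested genes called higher, was Esam, an adhesion molecule of endothelium and platelets, at 0.203 ± 0.114 TPM in samples labelled Lv-Ctrl and 5.68 ± 0.893 TPM in samples labelled Lv-Piezo1 (SD, n = 4 each). Esam reached the limit for testing only through the samples labelled Lv-Piezo1, so its call is a description and no support. Of 6 erythroid markers in the table, 0 were tested, Epb42 was listed at 0 in all samples, and the sum of the list, nearly all of it Klf1, lay between 0.39 and 1.39 TPM in every sample. In the samples in which Aqp1 was near 2028 TPM, Pecam1, Cdh5, Emcn and the erythroid markers other than Klf1 were thus at or near 0, while Esam and Egfl7 were not, and the haemoglobin genes and Cldn5 were not matched by symbol. The part of Esam-expressing cells in the level of Aqp1 was not tested.

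Of 14 markers of smooth muscle and pericytes in the table, 12 were tested, 7 were called higher (58.3%) and 2 lower (16.7%), beside 4.91% and 2.76% of all tested genes. The other 3 were higher by adjusted p alone. Their summed TPM was 997, 984, 949 and 961 in Lv-Ctrl replicates 1 to 4 and 4927, 4986, 4991 and 4836 in Lv-Piezo1 replicates 1 to 4. Tagln, an actin-binding protein and the most abundant of the list in the samples labelled Lv-Piezo1, had 219 ± 4.64 and 2730 ± 41.2 TPM (SD, n = 4 each). The smooth muscle actin gene Acta2 had a log2 fold change of 4.69, the myosin gene Myh11 of 4.13 and the calponin gene Cnn1 of 3.95. In the other direction went Kcnj8 and Abcc9, which encode the subunits of the KATP channel of vascular smooth muscle and pericytes, with log2 fold changes of -3.03 and -2.49. Kcnj8 was the most abundant of the list in the samples labelled Lv-Ctrl, at 326 ± 5.61 TPM (SD, n = 4). Rgs5, a pericyte marker, did not exceed 0.35 TPM in any sample, and no marker of this list was listed at 0 in all 8. The part of these cells or genes in the level of Aqp1 was not tested.

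The label of the cells was checked against annulus fibrosus markers, of which all 12 were in the table and 11 were tested. Their summed TPM lay from 15181 to 18236 in Lv-Ctrl and from 16030 to 17470 in Lv-Piezo1 samples, with overlap, and Thbs2 was the most abundant in the samples labelled Lv-Ctrl only. Tnmd, a marker of the outer, tendon-like annulus, was listed at 0 in 7 samples and at 0.08 TPM in Lv-Piezo1 replicate 4. Of the same list, and named after their values were seen, Scx and Mkx were present in all 8 samples and differed in opposite directions. Scx had 30.1 ± 5.05 TPM in Lv-Ctrl and 56.8 ± 10.5 TPM in Lv-Piezo1 samples, and Mkx 25.4 ± 2.89 and 14.6 ± 1.41 TPM (SD, n = 4 each). Within this list, 1 gene was called higher (Comp, log2 fold change 1.16, short of the threshold at 0.93 with quantile normalization) and 2 lower (Col12a1, -1.59, and Dcn, -1.49), beside 4.91% and 2.76% of all tested genes. Comp, with means of 0.74 TPM in Lv-Ctrl and 2.86 TPM in Lv-Piezo1 samples, reached the limit for testing only through the latter. By adjusted p alone, 5 of the list were higher and 5 lower (45.5% each, beside 41.9% and 16.3% of all tested genes), and in 10 of the 11 tested the groups did not overlap (90.9%, beside 54.2% of all tested genes). Of the nucleus pulposus and notochord markers, 4 of 9 in the table were tested and 2 were called higher, beside 4.91% of all tested genes, Cd24 (2.25) and the carbonic anhydrase gene Ca3 (2.11), each given as a log2 fold change. The same holds for Ca3, with means of 0.32 TPM in Lv-Ctrl and 4.67 TPM in Lv-Piezo1 samples: only the latter brought it to the limit for testing. The notochord genes Tbxt, Shh and Noto were listed at 0 in all samples, and the list summed to 84.3 ± 5.90 and 80.0 ± 3.47 TPM (SD, n = 4 each), led by Foxf1, which was lower by adjusted p alone (log2 fold change -0.62, adjusted p = 1.6e-05 from limma).

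The remaining marker lists were those of chondrocytes, macrophages and Schwann cells, whose counts stand beside the same 4.91% called higher and 2.76% called lower of all tested genes, and 41.9% and 16.3% by adjusted p alone. Of 10 chondrocyte markers, 4 were tested and 0 were called by limma, although 2 were higher and 1 lower by adjusted p alone. Acan led this list, which summed to 49.2 ± 4.14 and 63.9 ± 2.29 TPM (SD, n = 4 each), and Matn1 was listed at 0 throughout. Of 9 macrophage markers, 2 were tested, 1 was called higher and 2 were higher by adjusted p alone. The gene called was the lysosomal gene Cd68, at 0.955 ± 0.899 and 12.3 ± 0.901 TPM (SD, n = 4 each). Its values in Lv-Ctrl replicates 1 to 4 were uneven, at 2.08, 0.26, 1.28 and 0.20 TPM. With a mean below 1 TPM there, Cd68 reached the limit for testing only through the samples labelled Lv-Piezo1. Adgre1, C1qa, C1qb and Cd163 were listed at 0 and Ptprc did not exceed 0.01 TPM. That list summed to 22.4 ± 0.945 and 39.3 ± 2.39 TPM (SD, n = 4 each), with Cd14 the most abundant. Of 6 Schwann cell markers, 1 was tested and called lower, S100b, which cartilage cells also express, at 328 ± 5.39 and 141 ± 4.47 TPM (SD, n = 4 each), and Sox10 was listed at 0.

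The genes whose pattern over the 8 samples was most like that of Aqp1 were Col4a3, RGD1565462, Acta2, Prss35 and Myh11. Likeness was measured as the root-mean-square difference between centred log2(TPM + 1) values among genes with a symbol and a mean of at least 5 TPM, and it was 0.22, 0.24, 0.25, 0.37 and 0.52 for these genes. Col4a3 encodes a chain of basement membrane collagen and measured 0.32, 0.39, 0.26 and 0.37 TPM in Lv-Ctrl replicates 1 to 4 and 32.30, 33.56, 35.03 and 37.21 TPM in Lv-Piezo1 replicates 1 to 4. All 5 were near flat within each group and far apart between the groups, and a shared pattern over 8 samples in 2 groups says little more than that.

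The neighbours of Aqp1 in the gene order of GRCr8 differed in both directions, at levels far below that of Aqp1 in every sample. On one side, Inmt, which encodes an indolethylamine methyltransferase, measured 8.53, 8.55, 8.67 and 10.08 TPM in Lv-Ctrl replicates 1 to 4 and 3.01, 4.12, 2.76 and 2.73 TPM in Lv-Piezo1 replicates 1 to 4. It was lower in all 4 samples labelled Lv-Piezo1, with a log2 fold change of -1.27 (adjusted p = 1.3e-05 from limma). Mindy4, a deubiquitinase gene that lies nearest on that side, had a log2 fold change of 0.65 (adjusted p = 5.4e-04 from limma) and groups that did not overlap, and Crhr2, beyond Inmt, was listed at 0 in 7 of the 8 samples. On the other side, Ghrhr, Adcyap1r1 and Neurod6 did not exceed 0.55 TPM in any sample and were not tested. The means of Adcyap1r1 were 0.085 and 0.365 TPM and those of Neurod6 0 and 0.18 TPM, without overlap of the groups and higher under the label Lv-Piezo1, while Ghrhr was listed at 0 in samples labelled Lv-Ctrl and at 0 to 0.24 TPM in the others.

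Promoter sequences of 250 bases before to 50 bases after the gene start were taken from RefSeq, assembly GRCr8, for 9 of the 10 genes, all but Nfat5. The letters TATAAA, the core of the TATA box, were in 14.2% of 33469 promoters of the same length when both strands were searched, and in those of Aqp1 and Slc6a6. The motif of the tonicity-responsive enhancer, which NFAT5 binds, was in 5.98% of promoters, and in that of Slc6a6. The CArG box, bound by serum response factor at smooth muscle genes, was in 1.64% of promoters and in none of the 9. The promoter of Aqp1, which differed most of the 10, spans chr4:85812534-85812833 on the plus strand, and the capitals mark TATAAA, whose first base lies at position -30 from the gene start. The promoter of Slc6a6 spans chr4:125752252-125752551 on the plus strand, and the capitals mark the enhancer motif, read on the minus strand, whose first base lies at position -161, with TATAAA left in lower case. Both are shown 5′ to 3′. A match of letters is a description and not a binding site.
Aqp1: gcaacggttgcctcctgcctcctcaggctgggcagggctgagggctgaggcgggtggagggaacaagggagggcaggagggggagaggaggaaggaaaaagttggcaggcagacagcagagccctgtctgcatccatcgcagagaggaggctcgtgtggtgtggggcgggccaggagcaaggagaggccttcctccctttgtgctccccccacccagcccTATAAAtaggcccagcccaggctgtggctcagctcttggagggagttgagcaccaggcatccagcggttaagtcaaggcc
Slc6a6: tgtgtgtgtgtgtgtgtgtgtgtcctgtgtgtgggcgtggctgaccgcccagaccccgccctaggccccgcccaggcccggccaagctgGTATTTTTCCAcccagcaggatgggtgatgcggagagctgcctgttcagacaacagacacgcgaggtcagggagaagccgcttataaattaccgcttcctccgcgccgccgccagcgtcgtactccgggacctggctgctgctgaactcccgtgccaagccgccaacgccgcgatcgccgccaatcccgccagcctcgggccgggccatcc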

How the data were processed

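RNA was sequenced from AFCs under CMS, 4 samples for each virus. The authors aligned filtered reads to the rat genome (HISAT2) and built transcripts from the alignments (StringTie). The submitters' processing notes name the mouse build mm10, which the rat identifiers of the table do not bear out, and DESeq2. The methods name FPKM, but the table deposited by the authors holds TPM with 2 decimals, so count-based tests could not be used.

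Each column was matched to its sample by its label. Genes had to reach 1 TPM on average over the samples (13103 genes). A gene low in 1 group could reach this mean through the other group alone, and its call is then no support. Values of log2(TPM + 1), which understate the change of low genes, were fitted with limma 3.58.1 in R 4.3.3 (empirical Bayes with a trend, Benjamini-Hochberg adjustment over all tested genes, no block). Markers were compared by the same fit, which was tested on simulated data. The simulated samples had independent noise and no difference in scaling, so that test does not bear on how calls depend on scaling. No p-value is given for the 10 genes. The cells came from culture repeats that, by the paper, received either virus, so samples of both groups may share an isolation. The p-values measure the spread between these samples.

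The 10 genes and all lists were chosen with earlier results of these data known. Named are the 10 genes, Piezo1, every aquaporin, the called genes and the most abundant gene of each related list, the most abundant gene and up to 3 called genes in each direction of each marker list, the 5 genes most like Aqp1 and 3 neighbours on either side of it. Some genes under this rule are not reported here. Where another gene is given, the text says that it was picked with its values in view, and defining markers near 0 are named besides. The genes Hspa1b, Wnk4, Cldn5, Hba-a1, Hbb and Krt19 were not matched by symbol and were not analysed here. Alternatives were a pseudocount of 0.1, no filter, a minimum mean of 5 TPM, scaling by median ratios or quantiles, removal of mitochondrially encoded genes, no trend, a block on the replicate number, no fold threshold and leaving out each sample in turn.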

Additional observations from a re-analysis of the deposited data

Results flagged for a closer look

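In 135 groups of 4 values, 7 held a sample whose gap to its nearest neighbour, as a share of the whole range of the group, was above Dixon's critical value. Chance gives about 1 in 20 such groups, and the groups are not independent because several genes share a sample. The number of groups includes the LRRC8 partners, the pump beta subunits and Mrps6, which were added after their values were seen. Among the 10 cell volume genes, Lrrc8a was lowest in Lv-Ctrl replicate 3 at 22.41 TPM, and Slc5a3 was lowest in Lv-Piezo1 replicate 1 at 0.28 TPM.

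Among the related genes, Lrrc8b stood out high in Lv-Piezo1 replicate 4 at 8.67 TPM. Among markers and neighbours, a sample far from the others was found for Acta2 in Lv-Piezo1 replicate 4 (1283.86 TPM, low), Dcn in Lv-Ctrl replicate 3 (1352.44 TPM, low), S100b in Lv-Piezo1 replicate 3 (147.95 TPM, high) and Inmt in Lv-Ctrl replicate 4 (10.08 TPM, high). In Acta2, Dcn, S100b, Inmt and Lrrc8b the groups did not overlap with these samples included.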

How the results depend on the processing

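Aqp1 kept its direction under every alternative run, with a log2 fold change of 5.14 to 5.20 when each sample was left out in turn and 4.99 after median-ratio scaling, which lay beyond the spread. With each sample left out in turn, 1006 to 1030 genes were called, and among them 1 of the 10 cell volume genes, 5 related genes and 17 to 18 markers. A mean TPM of at least 5 gave 628 called genes and 3 related genes, with fewer genes tested. A pseudocount of 0.1 gave 1438 called genes (952 higher and 486 lower) and 8 related genes. Both scalings called 2 of the 10 genes, because Slc12a2 passed the fold threshold. Without the fold threshold, 7626 genes, 6 of the 10, 47 related genes and 32 markers passed. Called genes split into 644 higher and 361 lower on the deposited values, 504 and 477 after median-ratio scaling and 463 and 485 with quantile normalization. The cause of the changes under scaling was not tested. Ratios and shares were recomputed only with each sample left out in turn, since the scaling of a sample does not enter them; quantile normalization was not applied to them.

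Same-numbered samples of the groups did not deviate together. The correlations of their deviations across 13103 genes, which are not independent replicates, were -0.03, -0.06, -0.05 and -0.01. No pairing by number was thus seen, although samples of both groups may share an isolation. With the replicate number as a block, 1004 genes were called, and 1, 5 and 17 of the 10 genes, related genes and markers, and the log2 fold change of Aqp1 was 5.17.

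Of the values of ratios and of single genes other than Aqp1 under all alternatives, 881 were counted as unchanged and 23 as moved. For the 10 genes and the ratios this rested on the spread, and Slc12a2, which both scalings called, was counted as moved. Genes outside the 10 were judged by their call, and if not called they counted as moved only when their sign changed. A gene not called could thus shift beyond its spread and count as unchanged, as did Tsc22d1 (-0.78, and -0.95 after median-ratio scaling). A further 18 values were newly called, most of them because the fold threshold was dropped. The call was lost in 2 (Fxyd1 and Comp, with quantile normalization). This tally follows the call by adjusted p and fold change together. By adjusted p alone, the split of the 10 genes depended on scaling (5 higher and 1 lower on the deposited values, 2 and 4 after median-ratio scaling, 3 and 3 with quantile normalization). Among the other named genes, Aqp11 and Lrrc8b no longer passed with quantile normalization, nor did Slc12a9 and Cd14 with either scaling. The depth of the samples is unknown, so genes near 0, such as Slc5a3, are limited by an error that could not be given. The 4 samples of a group come from cells of pooled rats, and the targeted transcript was higher under the label Lv-Piezo1. Transcript levels say nothing here of channel protein, water flow or cell volume.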
